A study of Danio rerio with 116 samples.

Results

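Adult male germ cells were examined at 70 dpf (days post-fertilisation), as EGFP +ve cells against EGFP -ve control cells sorted from fish of the same age, sex and line. The members were chosen from the labels, as the libraries of 70 dpf with sex male. These were 3 EGFP +ve and 3 control libraries, each from 1 fish, or 6 of the 116 libraries of the series. All the fish carried the transgene vas:eGFP, written vasa:EGFP here, in which the promoter of vasa drives EGFP. The control cells therefore carried the transgene too, and the groups differed in its expression and not in genotype. The gonadal region of each fish was dissected and dissociated, and cells were sorted by their fluorescence. Because male germ cells lose this fluorescence on the way to sperm, the EGFP +ve sort covers the early part of the male germline only. By the same loss, later germ cells could fall among the EGFP -ve control cells, which was not tested. The labels name the source of the EGFP +ve cells as germinal stem cells and that of the controls as whole embryo, although the fish were adult. Bisulfite reads hold no expression values, so neither cell type could be checked against marker genes here.

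DNA methylation in vertebrates is the addition of a methyl group to cytosine, mostly where cytosine is followed by guanine (CG). Most CG sites of the zebrafish genome carry it in somatic tissue and in sperm, while dense clusters of CG sites at promoters are commonly free of it. The ribosomal RNA genes (rDNA), which encode the RNA of the ribosome, lie in repeated arrays, and zebrafish chromosome 4 carries an array whose transcripts are typical of the oocyte. The long arm of chromosome 4 is heterochromatic and rich in repeats.

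The measurement was low coverage whole genome bisulfite sequencing, in which each read reports every CG site it covers as methylated or not. One such report is called a CG call here. The EGFP +ve libraries A, B and C held 29106, 66302 and 59895 calls, and the control libraries A, B and C held 26618, 11973 and 14966 calls. The control libraries were thus the shallower, and the shallowest EGFP +ve library held more calls than any of them. In the same order, 9075, 20680 and 18579 reads of EGFP +ve cells and 8258, 3327 and 4834 reads of control cells had at least 1 call. Calls per read were between 3.10 and 3.60. Of the 6 libraries, 5 were sequenced on 1 run, and control C was sequenced on another, as the read names show. At this depth single genes and promoters cannot be compared, so methylation was described over chromosomes, large windows and classes of reads. With 3 libraries against 3, an exact permutation test over libraries cannot give a p below 0.1.

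Global methylation of adult male germ cells did not differ from that of control cells beyond the spread between libraries. It was computed as the mean, over 10 Mb windows along chromosomes 1 to 25, of the share of calls that were methylated, in per cent. The EGFP +ve libraries A, B and C were at 76.0%, 77.4% and 80.3%. The control libraries A, B and C were at 77.2%, 76.1% and 75.9%. The groups overlapped, since EGFP +ve A lay below 2 of the 3 controls. EGFP +ve cells averaged 77.9% ± 2.19 (SD, n = 3) and control cells 76.4% ± 0.72 (SD, n = 3). The difference was 1.47 methylation percentage points, with p = 0.3 in a two-sided exact permutation test. Without EGFP +ve C the difference was 0.28 percentage points, and without EGFP +ve A it was 2.42. Among the libraries of the single run that holds both groups, it was 1.22 percentage points (exact p = 0.6).

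**Figure D1:**
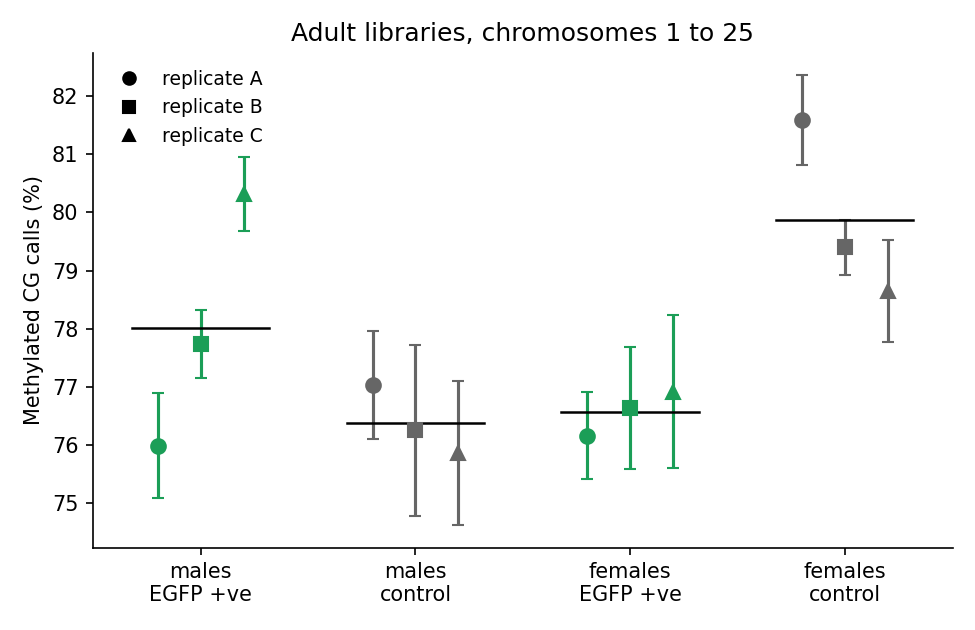
Percentage of methylated CG calls on chromosomes 1 to 25, with the rDNA region left out, in each adult library (EGFP +ve in green, control in grey). Bars are 95% counting intervals with the read as the unit, and black lines are means of 3 libraries. The male EGFP +ve libraries spread from 76.0% to 80.3%, while the male controls sit between 75.9% and 77.0%.

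The 3 EGFP +ve libraries differed from each other by more than counting error, a comparison of single libraries and not of conditions. Calls pooled over chromosomes 1 to 25 without the rDNA region gave 76.0% in A (95% counting interval 75.1 to 76.9), 77.7% in B (77.1 to 78.3) and 80.3% in C (79.7 to 81.0), with calls of 1 read kept together. These 3 intervals do not overlap. The intervals of the control libraries, 76.1 to 78.0, 74.8 to 77.7 and 74.6 to 77.1, all overlap, but they are wider, as those libraries are shallower. Their half-widths are 0.93, 1.47 and 1.24 percentage points against 0.90, 0.59 and 0.63 in EGFP +ve A, B and C. EGFP +ve C was above EGFP +ve A on 24 of the 25 chromosomes and above EGFP +ve B on 22. It was also above control A on 22 chromosomes, control B on 20 and control C on 21. EGFP +ve A was above the same 3 controls on 11, 12 and 15 chromosomes, close to an even division. Whether the libraries were more variable in germ cells than in control cells was not tested, since 3 libraries a group are too few.

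Set in the rest of the series, EGFP +ve A, B and C ranked 50, 35 and 23 from the highest of 59 EGFP +ve libraries in global methylation. The other 56 EGFP +ve libraries of all ages ran from 75.1% to 86.2% with a median of 78.5%, so adult males lay within their range. The male control libraries A, B and C ranked 21, 36 and 38 of 57.

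Chromosome by chromosome, no difference between germ cells and control cells passed the test. Calls were pooled over each chromosome with the rDNA region left out, and the log2 ratio of methylated to unmethylated calls was compared with limma, a moderated linear model fitted across all chromosomes. None of 25 chromosomes had an adjusted p under 0.05 (percent called 0 in either direction), and the smallest adjusted p was 0.448. At an unadjusted p under 0.05 there were 2, both with the higher mean in EGFP +ve cells. The mean of EGFP +ve cells was above that of controls on 20 chromosomes and below it on 5, with a median difference of 1.78 percentage points. After each library was centred on its own median over the chromosomes, this division was 14 to 11. The counting error of a single chromosome was large beside these differences. Its median over chromosomes was between 1.52 and 2.30 percentage points (SE) in the EGFP +ve libraries, and between 2.37 and 3.75 in the controls.

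The groups did not overlap on 3 of 25 chromosomes, and on all of them EGFP +ve cells were the higher (12% of the chromosomes tested, against 0% lower). Of the 20 divisions of 6 libraries into 3 and 3, 1 puts every EGFP +ve library higher and 1 every control. This count of chromosomes was given no test. Chromosome 12 had the largest difference. Its EGFP +ve libraries A, B and C were at 80.0%, 79.2% and 82.1%, and its control libraries A, B and C at 76.1%, 74.3% and 73.1%. The difference of means was 5.94 percentage points, or 0.50 ± 0.21 (SE) in the log2 ratio of methylated to unmethylated calls (limma, adjusted p = 0.448). The fit gave this same SE to all 25 chromosomes, so it is not the spread of chromosome 12 alone. Chromosome 20 was the second of the 3, with 78.5%, 79.3% and 78.8% in EGFP +ve cells and 72.9%, 72.5% and 78.4% in controls, a difference of 4.30 percentage points (adjusted p = 0.533). There the highest control lay just below the lowest EGFP +ve library. Chromosome 3, which is outside the rule for named regions and was picked after its values were seen, completed them at 78.3%, 77.3% and 79.4% against 77.2%, 71.8% and 74.0%.

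Chromosome 10 had the second largest difference, 5.05 percentage points (adjusted p = 0.533), but its groups overlapped. EGFP +ve A, B and C were at 75.05%, 79.2% and 82.4% there, and control A, B and C at 77.0%, 71.9% and 72.7%. In the other direction, chromosome 8 stood lowest, with 70.9%, 76.9% and 80.3% in EGFP +ve cells against 75.2%, 80.9% and 83.0% in controls, a difference of -3.65 percentage points (adjusted p = 0.539). Each group spanned more on chromosome 8 than the difference between their means. That difference was -1.07 without EGFP +ve A, -5.80 without EGFP +ve C and -5.90 without control A. Chromosomes 6 and 7 followed, at -1.38 and -0.13 percentage points.

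The difference on chromosome 4 was below the median of the chromosomes. Its EGFP +ve libraries A, B and C were at 80.6%, 79.8% and 82.3% and its control libraries at 78.6%, 84.0% and 77.3%, a difference of 0.94 percentage points (adjusted p = 0.936). Along chromosome 4 the level was uneven in both groups. In the window from 10000001 to 20000000, EGFP +ve cells had a mean of 73.9% and controls of 63.7%. In the window from 60000001 to 70000000 the means were 85.2% and 91.1%. The second window lies on the long arm, where both groups had higher levels. EGFP +ve cells had the higher mean in 3 of the 8 windows of chromosome 4, and none of them passed the test.

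**Figure D2:**
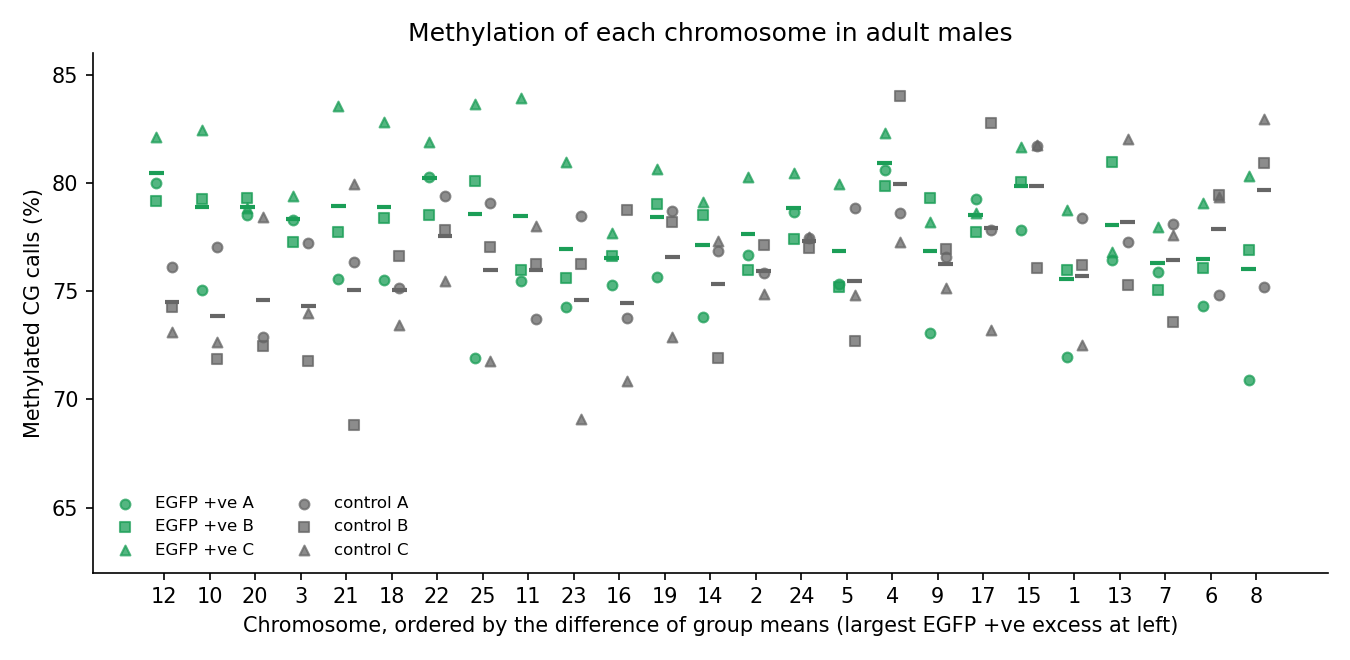
Percentage of methylated CG calls on each chromosome in the 6 adult male libraries (EGFP +ve in green, control in grey, horizontal ticks for the means of 3 libraries), ordered by the difference of means. On chromosomes 12, 20 and 3 every green point lies above every grey one, and EGFP +ve C (green triangles) is above EGFP +ve A on 24 of 25 chromosomes.

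Windows of 10 Mb gave no difference that passed the test either. Windows with at least 20 calls in each of the 6 libraries were tested, 140 in all. None had an adjusted p under 0.05 in limma (percent called 0 in either direction), and 6 had an unadjusted p under 0.05, 3 in each direction. EGFP +ve cells had the higher mean in 90 windows and the lower in 50, or 76 and 64 after centring of each library. Differences ran from -11.9 to 14.6 percentage points with a median of 2.04. The groups did not overlap in 7 windows with EGFP +ve higher (5% of windows) and in 6 with EGFP +ve lower (4.29%). The 2 directions were thus close to balance in windows of this kind, while on whole chromosomes they were 3 and 0. Control B had a median of 81 calls in a window and EGFP +ve B a median of 468, so the shallow controls carried most of the counting error. The SD of the level over windows was 10.0 percentage points in control B and 4.42 in EGFP +ve B.

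Positions are those of the deposited calls, on assembly GRCz10. The largest difference was in the last window of chromosome 20, from 50000001 to its end. EGFP +ve A, B and C were at 90.4%, 88.0% and 81.8% there, and control A, B and C at 67.8%, 67.9% and 80.6%. The groups did not overlap, although EGFP +ve C and control C lay close together. The difference was 14.6 percentage points (limma, adjusted p = 0.646). It was the one window to pass in any alternative, with an adjusted p of 0.0266 and 21.3 percentage points without both libraries of replicate C. The range of its adjusted p over the alternatives that left out libraries was 0.0266 to 0.994.

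The window of chromosome 11 from 30000001 to 40000000 came next. It had 76.5%, 77.8% and 86.4% in EGFP +ve cells and 71.4%, 59.5% and 71.2% in controls, without overlap. The window of chromosome 21 from 10000001 to 20000000 had 69.5%, 69.3% and 80.0% in EGFP +ve cells and 82.3%, 34.7% and 65.8% in controls. That difference of 11.99 percentage points rested on control B, which had 49 calls there, and was -1.13 without it.

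In the other direction, the window of chromosome 17 from 30000001 to 40000000 had 62.6%, 72.3% and 73.2% in EGFP +ve cells against 70.6%, 86.7% and 86.7% in controls. Its difference of -11.9 percentage points was the lowest, and its groups overlapped. The window of chromosome 13 from 30000001 to 40000000 had 73.1%, 74.7% and 66.7% against 74.7%, 85.7% and 89.1%, and all of its EGFP +ve libraries were below all of its controls. The window of chromosome 7 from 50000001 to 60000000 behaved likewise, at 74.2%, 76.3% and 75.4% against 81.9%, 90.3% and 83.3%. The adjusted p of the windows of chromosomes 11, 17, 13 and 7 was 0.792 and that of chromosome 21 was 0.838.

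**Figure D3:**
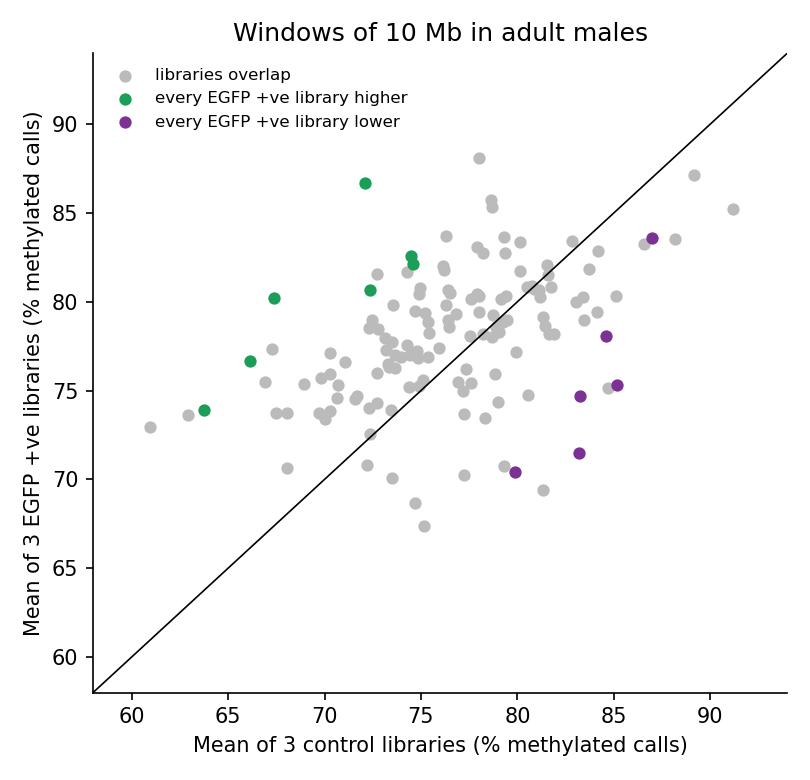
Mean methylation of each of 140 windows of 10 Mb in 3 EGFP +ve libraries (vertical) against 3 control libraries (horizontal), both in per cent of calls, with the line of equal values. The 7 green and 6 purple points are windows whose groups do not overlap, and 90 windows lie above the line.

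Windows were also grouped by how methylated they are elsewhere in the series. Windows of 100 kb were ranked into 5 equal classes, of 2663 windows each, by their methylation in the other 110 libraries, which leaves the 6 libraries themselves out of the ranking. In the least methylated class, EGFP +ve A, B and C were at 65.5%, 68.2% and 69.9% and control A, B and C at 67.3%, 62.8% and 68.2%. In the most methylated class they were at 83.4%, 84.6% and 87.3% against 83.5%, 84.9% and 81.5%. Both groups therefore kept the order of the classes, and the groups overlapped at both ends. The fourth class, of windows between 81.9% and 85.7% in the other libraries, was the one without overlap. There EGFP +ve A, B and C were at 80.7%, 81.7% and 85.0% and control A, B and C at 80.2%, 78.8% and 80.2%, a difference of 2.73 percentage points (exact permutation test, p = 0.1, which is the smallest possible, and 0.5 adjusted over the 5 classes). That difference was 0.80 percentage points with windows of 50 kb (exact p = 0.8), 2.20 when windows were ranked on control libraries (exact p = 0.2) and 1.47 without EGFP +ve C.

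Reads were then divided by the number of CG calls they hold, which stands for the local density of CG sites, with chromosomes 1 to 25 included and the rDNA region left out. Reads of 1 call were 73.7%, 75.8% and 80.7% methylated in EGFP +ve A, B and C and 74.8%, 74.8% and 73.8% in control A, B and C. Reads of 2 to 3 calls were at 76.6%, 78.2% and 82.3% against 78.2%, 76.8% and 76.8%. Reads of 4 to 7 calls were at 77.4%, 78.8% and 82.0% against 78.1%, 77.7% and 77.2%. In each of these 3 classes EGFP +ve C was the highest of the 6 libraries and EGFP +ve A lay below all 3 controls in the first pair of classes and below 2 of them in the third. Reads of 8 or more calls, the densest class, were at 72.8%, 75.5% and 73.6% against 73.2%, 73.1% and 71.7%, and there EGFP +ve C was not the highest. The differences of means were 2.27, 1.76, 1.73 and 1.32 percentage points from the sparsest class to the densest, and none differed beyond the spread (exact permutation tests, p from 0.3 to 0.6, all 0.6 after adjustment over the 4 classes).

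The gap between sparse and dense reads was widest in EGFP +ve C among the 6 libraries, but it was not unusual in the series. Reads of fewer than 8 calls were more methylated than reads of 8 or more by 3.91, 2.73 and 8.36 percentage points in EGFP +ve A, B and C and by 4.60, 4.07 and 4.999 in control A, B and C. EGFP +ve A and B ranked 50 and 57 of the 59 EGFP +ve libraries of the series in this gap, and EGFP +ve C ranked 31. The other 56 EGFP +ve libraries had a median gap of 9.66 percentage points, and the 12 of males at 35 to 50 dpf one of 7.96. The 3 EGFP +ve libraries of females at 70 dpf ran from -0.98 to 5.44 with a median of 4.83, nearer to EGFP +ve A and B. This measure was chosen after the values were seen and was given no test. None of the shares of reads in the 4 classes differed between the groups beyond the spread (exact permutation tests, p from 0.3 to 1). Reads of 8 or more calls made up 6.20%, 6.28% and 6.51% of reads in EGFP +ve cells and 5.66%, 8.27% and 5.22% in controls (exact p = 1).

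**Figure D4:**
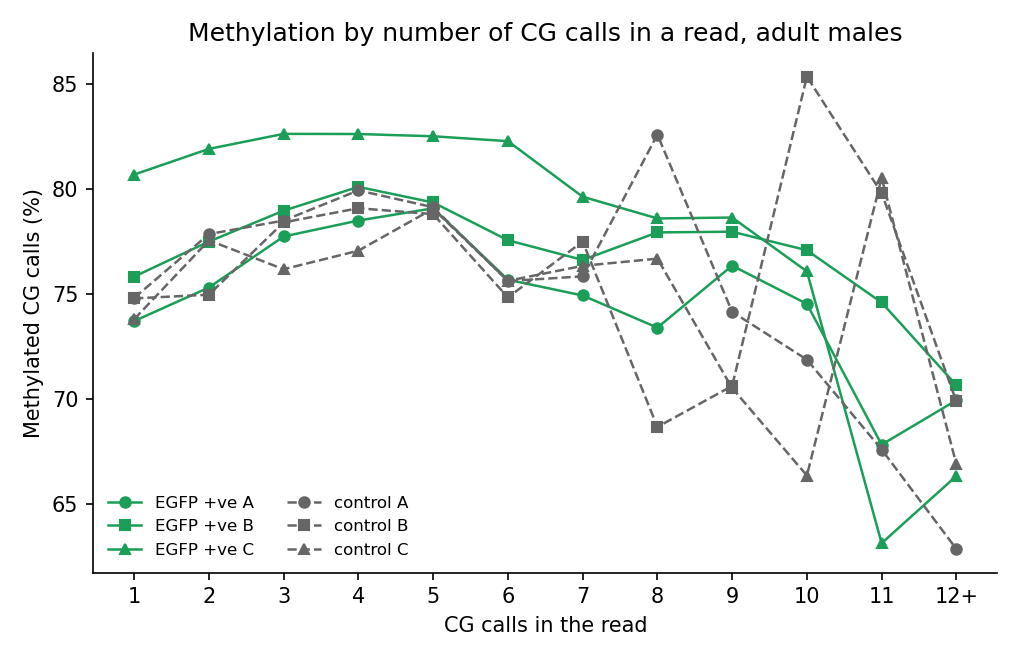
Percentage of methylated calls against the number of CG calls in a read, up to 12 or more, in each adult male library (EGFP +ve in green with solid lines, control in grey with dashed lines). EGFP +ve C is the highest library in each class from 1 to 7 calls, and all 6 libraries are lower at 12 or more calls than at 4.

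The methylation of whole reads shows where the libraries differ. Reads with at least 4 calls were counted as fully methylated, unmethylated or mixed. Fully methylated reads were 48.9%, 52.0% and 56.8% in EGFP +ve A, B and C and 51.0%, 49.5% and 47.5% in control A, B and C. Their means were 52.6% ± 3.99 and 49.3% ± 1.74 (SD, n = 3 each, exact permutation test, p = 0.3). The difference of 3.21 points was 1.08 without EGFP +ve C and 5.04 without EGFP +ve A. The 95% Wilson interval was 47.1 to 50.7 in EGFP +ve A, of 2988 reads, and 55.6 to 58.05 in EGFP +ve C, of 6087 reads. Mixed reads went the other way, at 41.3%, 38.2% and 33.7% in EGFP +ve cells against 39.6%, 39.4% and 42.7% in controls (exact p = 0.4). Unmethylated reads were close in all libraries, at 9.81%, 9.80% and 9.46% in EGFP +ve cells and 9.41%, 11.1% and 9.75% in controls, with an SD of 0.20 points in EGFP +ve cells. The unmethylated share of EGFP +ve C also had an interval, 8.75 to 10.2, that overlapped that of EGFP +ve A, 8.79 to 10.9. The spread among the germ cell libraries was therefore one between fully methylated and mixed reads.

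Within the mixed reads, 69.9%, 71.3% and 72.5% of calls were methylated in EGFP +ve A, B and C, and 69.5%, 71.8% and 69.9% in control A, B and C. Mixed reads with a single unmethylated call were 56.3%, 60.6% and 65.4% of mixed reads in EGFP +ve cells and 56.5%, 58.2% and 56.4% in controls. In both measures EGFP +ve A lay close to control A and EGFP +ve C was the highest of the 6 libraries.

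Unmethylated reads were 8.36%, 8.69% and 7.67% of reads of 4 to 7 calls in EGFP +ve A, B and C. In control A, B and C they were 8.34%, 9.72% and 8.31%. Among reads of 8 or more calls they were more frequent, though still the least frequent of the 3 kinds. They were 16.2%, 14.6% and 16.95% there in EGFP +ve cells and 14.9%, 16.4% and 17.004% in controls. Fully methylated reads of this dense class were 40.8%, 44.7% and 46.3% in EGFP +ve cells and 40.5%, 34.7% and 37.2% in controls. All 3 EGFP +ve libraries lay above the 3 controls there, but the lowest by less than its counting interval (36.8 to 45.0). This division was made after the values were seen and has no test.

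Reads on scaffolds, sequences that the assembly does not place on a chromosome, made up a small share of the calls. That share was 2.46%, 2.79% and 2.96% in EGFP +ve A, B and C and 2.63%, 3.12% and 2.23% in control A, B and C. Scaffold calls were 81.4%, 81.2% and 83.5% methylated in EGFP +ve cells and 81.9%, 83.9% and 84.7% in controls. In each library this was above its own level on the chromosomes. The difference of -1.45 percentage points was opposite in sign to that of the chromosomes and within the spread (exact p = 0.2, 0.4 adjusted over both scaffold measures). Calls fell on 509 scaffolds, and KN149861.1 alone held 829 of the 5742 scaffold calls of the 6 libraries. It had 33, 270 and 361 calls in EGFP +ve A, B and C, methylated at 87.9%, 93.3% and 93.9%. It had 53 and 112 calls in control A and B, methylated at 81.1% and 88.4%, and 0 calls in control C. KN149861.1 was more methylated than scaffold calls as a whole in each EGFP +ve library and in control B. The overlap of the groups in scaffold methylation rested on it. With KN149861.1 left out, each EGFP +ve library lay below each control, with EGFP +ve A and control A the closest pair. This scaffold was picked as the one with most calls in these same 6 libraries, and the division was given no test. An exact permutation test of 3 libraries against 3 could not have given a p below 0.1 for it.

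The mitochondrial genome (MT) is present in many copies per cell and is generally thought to carry little CG methylation. Reads of MT with a call were few, with 4, 10 and 13 in EGFP +ve A, B and C and 2, 0 and 0 in control A, B and C. As shares of the reads with a call these were 0.0441%, 0.0484% and 0.0700% in EGFP +ve cells and 0.0242% in control A. The groups did not overlap. The 0 reads of control B and C allow shares of up to 0.0902% and 0.0621% (3 reads of each library), of which the first is above all 3 germ cell values and the second above 2 of them. So a lower share in these controls could not be detected at their depth. The difference in log2 share, with 0.5 reads added to each library, was 1.76 (exact p = 0.1, the smallest possible). It depends on the number added, and was 1.10 with 1 read added and 3.31 with calls in place of reads. Summed over libraries, 27 of 48334 reads of EGFP +ve cells were from MT, or 0.0559% (95% Wilson interval 0.0384 to 0.0813), and 2 of 16419 of control cells, or 0.0122% (0.0033 to 0.0444). Intervals and floors cover counting error only.

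MT calls were 27.3%, 10.3% and 22.4% methylated in EGFP +ve A, B and C, of 22, 39 and 49 calls, and 0% of 7 calls in control A. These percentages came from few reads. In EGFP +ve A, B and C, 1, 1 and 2 reads were fully methylated, 3, 9 and 9 were unmethylated and 0, 0 and 2 were mixed. No control library reached 10 MT calls, so the methylation of MT was not tested between the groups.

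The rDNA region on chromosome 4 (76313463 to 76330850, GRCz10, 17388 bp) had been located on EGFP +ve libraries of 21 to 28 dpf, which are not among the 6 libraries here. It held 8, 8 and 15 reads in EGFP +ve A, B and C and 0, 2 and 0 in control A, B and C. The shares of reads were 0.0882%, 0.0387% and 0.0807% in EGFP +ve cells and 0.0601% in control B. The groups overlapped, since control B lay above EGFP +ve B. Taken as 3 reads of each library, the 0 reads of control A allow a share of up to 0.0363% and those of control C one of up to 0.0621%. The 95% Wilson limit of control A was 0.0465%, which is above the share of EGFP +ve B. The interval of EGFP +ve B was itself wide, at 0.0196 to 0.0763. Control A could therefore not be placed below all 3 EGFP +ve libraries at this depth. The difference in log2 share, with 0.5 reads added, was 2.03 (exact permutation test, p = 0.2). With 0 reads in control A and C this value depends on the number added, and was 1.35 with 1 read added and 4.64 with calls in place of reads. It was 1.30 without control A and 3.11 without control B. Summed over libraries, the share was 0.0641% (95% Wilson interval 0.0452 to 0.0910) in EGFP +ve cells and 0.0122% (0.0033 to 0.0444) in controls. These intervals take the read as the unit, so they cover counting error only and not the spread between fish. All control reads of the region came from control B. In females of the same age the 3 EGFP +ve libraries were at 0.206%, 0.183% and 0.352% of reads, each above all 3 of males. The contrast between the sexes in the difference of germ and control cells was within the spread (-1.32 in log2 share, exact permutation test, p = 0.395). This contrast also depends on the 0.5 reads added to male control A and C, so it cannot decide whether the sexes differ.

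The methylation of rDNA reads varied between the germ cell libraries. The region was 82.5% methylated in EGFP +ve A, of 120 calls, 75.8% in B, of 95 calls, and 35.9% in C, of 217 calls. Control B was at 76.9% of 26 calls, and since it was the only control with calls there, no test was made. In EGFP +ve C the reads were spread from 0% to 100%. There 6 of 15 reads were methylated at 10% or less of their calls, 6 lay between and 3 were at 90% or more. Of the 15, 10 were at 50% or less. A pair of these spanned the same positions (76324352 to 76324474), with 7 calls each at 0% and 14.3%, and these counts keep both. EGFP +ve A had 1 of 8 reads at 10% or less, a read of 12 calls with none methylated, and 5 at 90% or more. EGFP +ve B had none at 10% or less and its lowest read was at 38.5%. The 2 reads of control B were at 70.6% and 88.9%.

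For reference, the 54 rDNA reads of EGFP +ve cells of adult females included 37 at 10% or less (68.5%). The 240 rDNA reads of all other control libraries of the series included 10 (4.17%). Low rDNA methylation was also found in males of 50 dpf. Their EGFP +ve C had 117 rDNA reads (0.960% of its reads with a call), with 0.623% of calls methylated. Their EGFP +ve A and B had 6 rDNA reads each (0.0377% and 0.0510%), with 89.5% and 67.6% of calls methylated. Among the 3 germ cell libraries of adult males, EGFP +ve C had most reads at 10% or less and was also the most methylated over the chromosomes. The rDNA calls were a small part of each of the 6 adult male libraries, at most 0.412% of its calls. Leaving the region out moved the difference in global methylation from 1.47 to 1.51 percentage points. A few reads of a region of repeats cannot be placed on single copies, so these values are not those of any 1 copy. The rDNA calls of the 6 libraries lay between 76320162 and 76326120, and the rest of the region held none.

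**Figure D5:**
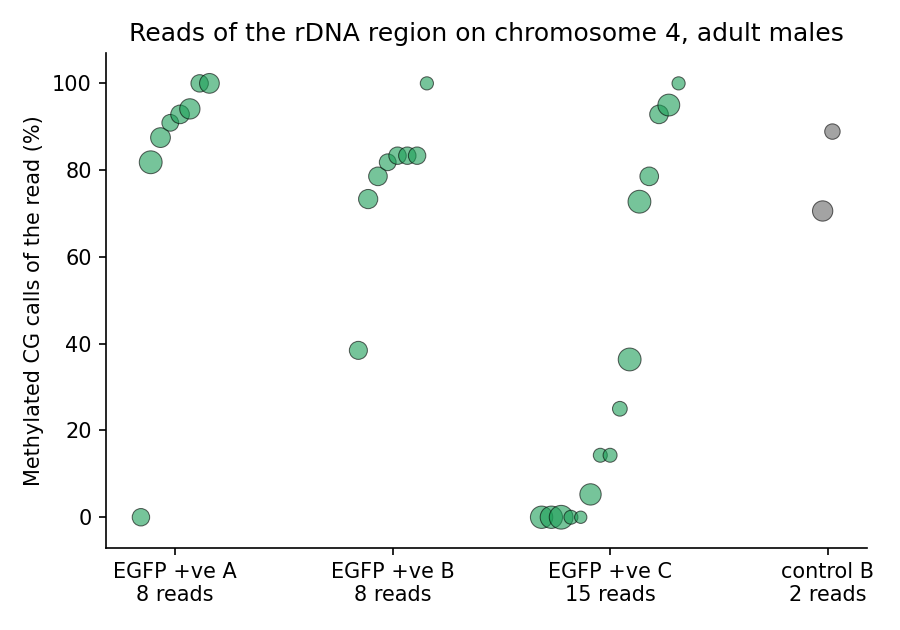
Methylation of each read of the rDNA region on chromosome 4 (per cent of its CG calls) in the adult male libraries that hold any, with larger circles for reads of more calls. In EGFP +ve C 10 of 15 reads lie at 50% or less, against 1 of 8 in each of EGFP +ve A and B and 0 of 2 in control B.

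The difference between germ cells and control cells was not the same in the adult sexes. In females of 70 dpf, EGFP +ve A, B and C were at 75.5%, 76.3% and 76.1% global methylation and control A, B and C at 81.1%, 79.6% and 78.7%, so each control lay above each EGFP +ve library. The difference was 1.47 percentage points in males and -3.83 in females, and these differed by 5.30 percentage points (sex permuted within cell type, exact over 400 arrangements, two-sided, p = 0.015, 0.04 adjusted over 10 measures). Means of male and female EGFP +ve cells were 77.9% and 76.0%, and those of male and female controls 76.4% and 79.8%. Each female control lay above each male control, while the EGFP +ve libraries of the sexes overlapped. The contrast takes in both cell types, so its test does not say in which of them the sexes differ. On the single run that holds both groups of both sexes the contrast was 5.05 percentage points (exact p = 0.02). Without any 1 library it was between 4.11 and 6.25, with p between 0.005 and 0.03. The lowest value was that without male EGFP +ve C. Global methylation includes the rDNA region, and no alternative of this contrast left it out. Pooled calls of female EGFP +ve A, B and C were 75.5%, 76.5% and 75.9% methylated with the region. Without it they were at 76.2%, 76.6% and 76.9%.

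Of the 4 classes of reads by number of calls, 2 passed the test of the contrast between the sexes after adjustment. The contrast was 6.46 percentage points in reads of 1 call (exact permutation p = 0.02, adjusted 0.04), 5.43 in reads of 2 to 3 calls (p = 0.035, adjusted 0.0583), 5.07 in reads of 4 to 7 calls (p = 0.02, adjusted 0.04) and 3.56 in reads of 8 or more (p = 0.215, adjusted 0.269). In the share of fully methylated reads it was 8.46 points, from 3.21 in males and -5.25 in females (exact p = 0.015, adjusted 0.04). In the share of unmethylated reads it was -2.18 points, from -0.40 in males and 1.78 in females (exact p = 0.005, the smallest possible, adjusted 0.04). In the share of mixed reads it was -6.28 points (exact p = 0.055, adjusted 0.0786). Methylation of scaffolds had a contrast of -0.43 percentage points (exact p = 0.815). The 10 measures are computed on the same reads in part and are not independent.

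Males of 50 dpf showed no detectable change of this difference with age. Their EGFP +ve libraries A, B and C were at 76.2%, 77.2% and 76.4% global methylation and their controls at 72.9%, 78.0% and 76.9%, a difference of 0.63 percentage points against 1.47 at 70 dpf. The contrast between the ages was 0.84 percentage points (exact permutation test, p = 0.665), and each of the 10 measures had an adjusted p of 0.99. All libraries of 50 dpf were sequenced on the run of male control C, and the other adult libraries on another, so age and run cannot be told apart in this contrast.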

How the data were processed

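Low coverage whole genome bisulfite libraries of vasa:EGFP zebrafish were made by post-bisulfite adaptor tagging. The authors trimmed reads with Trim Galore, mapped them with Bismark 0.19.0 and deposited 1 line per CG call, with read, strand, position and state, without normalization. The submitters' processing notes name GRCz10, and the paper GRCz11. Positions were used as deposited and taken as GRCz10. No sequence is printed, since no genome of that assembly was used here.

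Sums and permutations used Python 3.11.15 with the packages pandas 2.3.3, numpy 2.4.6 and scipy 1.17.1, and figures used matplotlib 3.10.9. Chromosomes and windows of at least 20 calls in each library were compared with limma 3.58.1 in R 4.3.3 on log2((methylated + 1)/(unmethylated + 1)), unweighted, with Benjamini-Hochberg adjustment and a threshold of 0.05. This fit was run on simulated data, with calls drawn independently and shifts larger than any window difference seen here. That run cannot show whether smaller shifts would be detected. Single values were compared by exact two-sided permutation tests over libraries, 20 arrangements for 3 against 3. Differences between sexes or ages permuted that label within each cell type. Shares of MT and rDNA reads were log2 with 0.5 reads added, over reads with a CG call. Region methylation needed 10 calls. Counting intervals of percentages use the variance between reads, and those of shares are 95% Wilson intervals. Depth was 11973 to 66302 calls per library.

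Replicates are libraries of separate fish by the labels, and nothing in the sources used here says whether EGFP +ve and control cells with the same letter came from the same fish. Regions named are chromosome 4, the 3 chromosomes and 3 windows of 10 Mb with the largest difference in each direction, the rDNA region and MT. Members, regions and tests were chosen with earlier results of these data known. Alternatives were other window sizes, call minimums and scales, centring, weights by calls, the sequencing run, duplicate reads, the mapped reads of the study as denominator, added reads, the replicate letter as a block, and leaving out libraries. Leaving out single libraries was added after seeing the data. So was restriction to 1 run for the classes of reads, scaffolds, MT, rDNA and the background classes.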

Additional observations from a re-analysis of the deposited data

Results flagged for a closer look

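The contrast between the adult sexes in the difference of EGFP +ve and control cells stood out by its own test in 6 measures. It was 5.30 percentage points in global methylation, 6.46 in reads of 1 call, 5.43 in reads of 2 to 3 calls and 5.07 in reads of 4 to 7 calls. It was 8.46 points in the share of fully methylated reads and -2.18 points in the share of unmethylated reads. Among these 6, reads of 2 to 3 calls had an adjusted p above 0.05 (0.0583) and the others one of 0.04, by exact permutation over 400 arrangements. All libraries of the 4 groups were of 1 age, each from 1 fish, and all were on 1 run except male control C. Without that library the global contrast was 5.05 percentage points. Each contrast takes in both cell types, so it does not say in which of them the sexes differ.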

How the results depend on the processing

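Of 38 results, 24 had no reversal of direction in any alternative tried. The 24 include the numbers of chromosomes and of windows called, which have no direction. Without both libraries of 1 letter or without 1 library, the difference was between -0.033 and 3.96 percentage points in reads of 1 call, -0.084 and 3.43 in reads of 2 to 3 calls, -0.73 and 0.91 in the share of reads with 8 or more calls, -5.07 and 0.28 in the share of mixed reads, -0.80 and 0.11 in that of unmethylated reads, and -0.25 and 0.30 in the share of scaffold calls. In the background classes 1 to 5 it was between -0.015 and 3.57, -2.20 and 1.82, -0.28 and 3.34, 1.47 and 3.87, and -0.20 and 2.86. In the share of fully methylated reads it was between 0.17 and 5.87. The contrast of the sexes was between 4.11 and 6.25, and its p was 0.0556, 0.111 and 0.111 without letters A, B and C, where 2 libraries a group are left and the direction was the same. The contrast of the ages was between -1.15 and 3.50. Chromosome 7 was between -1.56 and 0.92, chromosome 4 between -1.11 and 3.50 (and -0.74 with libraries centred, which moves every chromosome alike), the last window of chromosome 20 between 10.6 and 21.3, and the window of chromosome 21 between -1.13 and 24.4. The number of windows called was between 0 and 1, with 1 called without letter C. On the 1 run that holds both groups, background class 2 was at -0.75, chromosome 7 at 0.46 and chromosome 4 at -0.41. The causes were not tested. No chromosome was called in any alternative. Deviations of same-letter libraries over 140 windows correlated at -0.14, 0.03 and -0.08, and those of different letters at -0.05 to 0.15. At the depth of the controls these values cannot show whether the letters pair the samples. With the letter as a replicate block, the difference in global methylation was 1.47 percentage points (exact p = 0.5, where 0.25 is the smallest possible), 0 chromosomes and 0 windows were called, and no call changed. The contrasts of sexes and ages were not fitted with a block. The depth of control B and C limits what can be said of MT and rDNA shares and of single windows.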
